A study of Mus musculus with 10 samples.

Results

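Expression of 10 genes of transforming growth factor β (TGF-β) signalling was followed in 10 mouse tumors: the ligands Tgfb1, Tgfb2 and Tgfb3, the receptors Tgfbr1, Tgfbr2 and Tgfbr3, the co-receptor Nrp1, the signal proteins Smad3 and Smad7, and the target Tgfbi. They are 10 of the 19938 genes that the array measures with a probe of their own. The probe for each gene was chosen by its mean over all 10 arrays, where several existed, and each of the 10 genes had 1 probe. That choice used levels and not the difference between the groups. The list itself was put together with earlier results of these data known, so its counts describe these genes and are no independent evidence.

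The tumors were grown under the skin of C57BL/6 mice from MC38, an established mouse colon carcinoma line. Of the tumors, 5 received 50 µg of CpG1826 in 50 µL of PBS at a size near 40 mm2 and were taken 6 h later; CpG1826 is a DNA oligonucleotide that activates the receptor TLR9. The other 5 received PBS, with the same schedule assumed, since the labels describe it for CpG1826 alone. Each array held total RNA of 1 whole tumor, and the mice are named by their label numbers: PBS mice 26, 29, 482, 592 and 661, and CpG1826 mice 50, 58, 183, 189 and 595. The values are log2 array values, on which 1 unit is a 2-fold difference, and they have no detection calls. In whole-tumor RNA, fewer cells of a type and less RNA per cell cannot be told apart. The comparison asked how transcripts of the TGF-β pathway differed between CpG1826 and PBS tumors.

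TGF-β is made in a latent form that must be released outside the cell, by integrins or thrombospondin for example, before it can bind. The free ligand brings TGFBR2 and TGFBR1 together on the cell surface, TGFBR1 phosphorylates SMAD2 and SMAD3, and these enter the nucleus with SMAD4. In tumors the pathway is known for restraining immune cells and for driving matrix production by fibroblasts.

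In CpG1826 tumors, 4 of the 10 genes were lower: the co-receptor Nrp1, the ligand Tgfb3 and the 2 signalling receptors Tgfbr2 and Tgfbr1. None of the 10 was higher. Tgfb1, Tgfb2, Tgfbr3, Smad3, Smad7 and Tgfbi did not pass the test, limma with Benjamini-Hochberg adjustment over all 19938 genes at a threshold of 0.05. Over all genes, 1.1% were called lower (220 genes) and 3.56% higher (710 genes). The median log2 fold change of the 10 genes was -0.14, where that of all genes was -0.02. The 4 genes that fell were also the ones whose 5 CpG1826 values all lay below their 5 PBS values, which held for 2.42% of all genes; for 4.35% of all genes, and for 0 of the 10, all CpG1826 values lay above all PBS values. At an unadjusted limma p under 0.05, 5 of the 10 were lower and 0 higher, beside 7.43% and 8.13% of all genes.

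**Figure D1:**
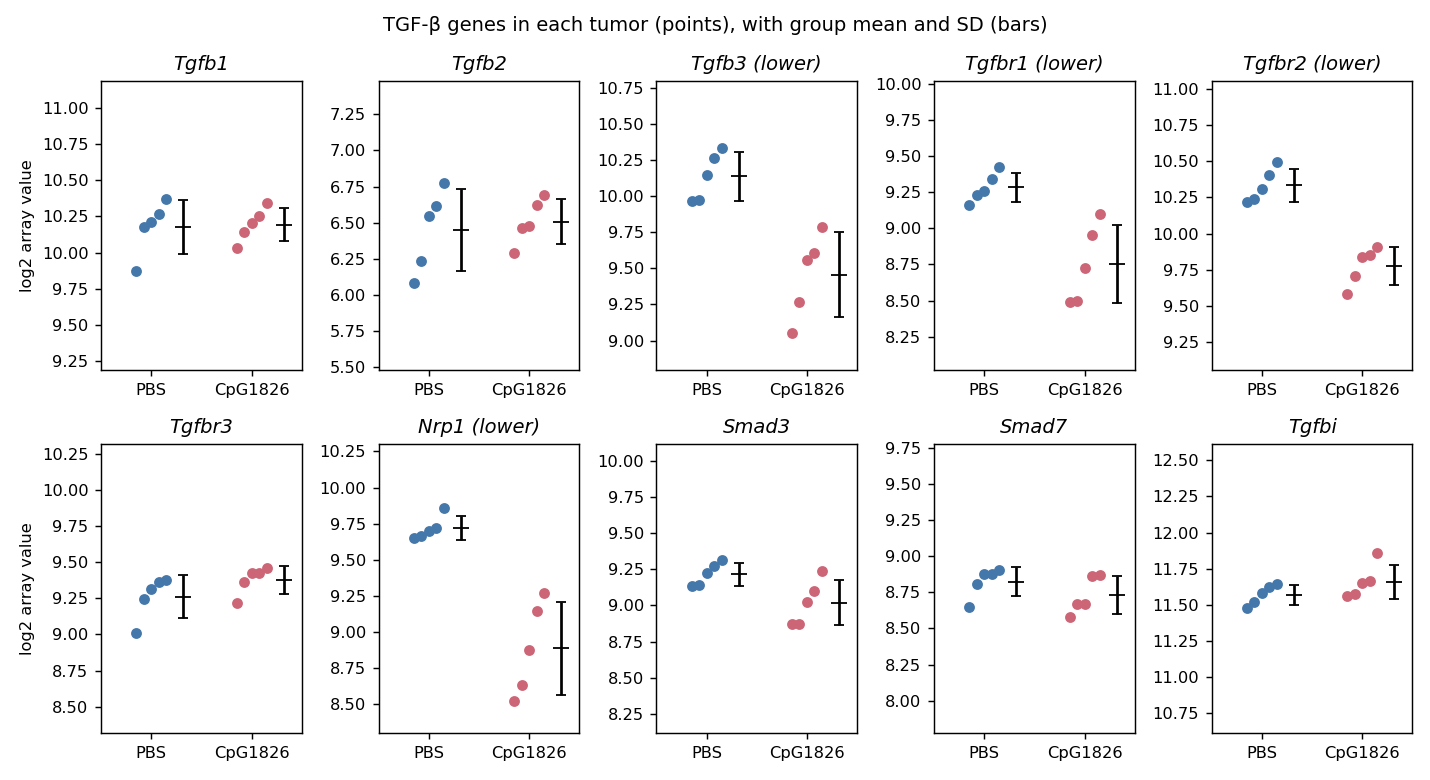
Log2 array value of the 10 genes in each tumor, with 5 PBS tumors in blue and 5 CpG1826 tumors in red; the black bars give the group mean and SD, and every panel spans 2 log2 units. In Tgfb3, Tgfbr1, Tgfbr2 and Nrp1 the CpG1826 points all lie below the PBS points, and in the other 6 genes the groups overlap.

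Among the ligands, Tgfb3 alone of the 3 passed the test. Tgfb3 encodes an isoform best known for palate fusion and scar-poor wound healing. It measured 10.33, 9.97, 10.15, 10.26 and 9.96 in PBS mice 26, 29, 482, 592 and 661. It measured 9.05, 9.56, 9.27, 9.61 and 9.79 in CpG1826 mice 50, 58, 183, 189 and 595. The highest CpG1826 tumor, that of mouse 595, was below the lowest PBS tumor, and mouse 50 was lowest of all. With means of 10.13 ± 0.17 in PBS and 9.45 ± 0.29 in CpG1826 tumors (SD over 5 mice each), Tgfb3 fell by 0.68 ± 0.13 on the log2 scale (SE), which is 1.60-fold (95% confidence interval 1.32 to 1.94, limma adjusted p = 0.00701).

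Tgfb1, the main isoform of immune cells and platelets, ranged from 9.87 to 10.37 in PBS and from 10.03 to 10.34 in CpG1826 tumors, with a log2 fold change of 0.02 ± 0.09 (SE, 95% confidence interval -0.19 to 0.22, limma adjusted p = 0.965). Its groups overlapped fully, and the lowest of the 10 values was that of PBS mouse 26. Tgfb2, an isoform with roles in heart and eye development, ranged from 6.09 to 6.78 and from 6.29 to 6.69, with a log2 fold change of 0.06 ± 0.12 (SE, -0.21 to 0.32, limma adjusted p = 0.884). Both intervals lie above the whole interval of Tgfb3, -0.96 to -0.40.

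Whether the ligands differed among themselves was tested on the log2 ratio of 2 genes within each tumor. In all, 7 such pairs were compared by exact two-sided permutation over tumors, with Benjamini-Hochberg adjustment over the 7. The ratio of Tgfb1 to Tgfb3 was higher in CpG1826 tumors by 0.70, from 0.04 ± 0.32 to 0.74 ± 0.22 (SD, n = 5 per group), above every PBS tumor in 5 of 5 (exact permutation p = 0.00794, as small as the design allows; adjusted p = 0.0185). The ratio of Tgfb2 to Tgfb3 was higher by 0.74, above every PBS tumor in 4 of 5 (exact permutation p = 0.0159, adjusted p = 0.0278). That call was lost in 8 of the 10 comparisons that leave out 1 mouse (adjusted p = 0.0278 to 0.0556); it held without PBS mouse 661 or CpG1826 mouse 595. Between Tgfb1 and Tgfb2 the ratio differed by -0.04 (exact permutation p = 0.762, adjusted p = 0.865).

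Both receptors that carry the signal fell, and the accessory receptor did not pass. Tgfbr2 encodes the type II receptor, which binds the ligand first. It measured 10.41, 10.22, 10.31, 10.24 and 10.49 in the PBS mice, in the order above. In the CpG1826 mice it measured 9.58, 9.85, 9.71, 9.84 and 9.91. The nearest tumors of the groups were PBS mouse 29 and CpG1826 mouse 595, with a clear gap between them. With means of 10.33 ± 0.12 and 9.78 ± 0.13 (SD over 5 mice each), Tgfbr2 fell by 0.56 ± 0.08 on the log2 scale (SE), which is 1.47-fold (1.30 to 1.66, limma adjusted p = 0.00104).

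Tgfbr1 encodes the type I receptor ALK5, the kinase that phosphorylates SMAD2 and SMAD3. It measured 9.26, 9.16, 9.34, 9.42 and 9.23 in the PBS mice. In the CpG1826 mice it measured 8.49, 8.73, 9.10, 8.50 and 8.96. Mouse 183 came close to the lowest PBS tumor, that of mouse 29, while mice 50 and 189 were lowest. With means of 9.28 ± 0.10 and 8.75 ± 0.27 (SD over 5 mice each), Tgfbr1 fell by 0.53 ± 0.11 on the log2 scale (SE), which is 1.44-fold (1.22 to 1.71, limma adjusted p = 0.0159).

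Tgfbr3 encodes betaglycan, a proteoglycan that presents ligand, TGF-β2 above all, to the type II receptor. It ranged from 9.01 to 9.38 in PBS and from 9.22 to 9.46 in CpG1826 tumors, with a log2 fold change of 0.12 ± 0.08 (SE, -0.06 to 0.29, limma adjusted p = 0.562). The ratio of Tgfbr1 to Tgfbr3 was lower in CpG1826 tumors by -0.64 on the log2 scale and that of Tgfbr2 to Tgfbr3 by -0.67, each below every PBS tumor in 5 of 5 (exact permutation p = 0.00794, adjusted p = 0.0185 for both). Between Tgfbr1 and Tgfbr2 the ratio differed by 0.03, with SDs of 0.17 and 0.27 in the groups (exact permutation p = 0.865, adjusted p = 0.865).

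Nrp1 had the largest difference of the 10 genes. It encodes neuropilin-1, a co-receptor for semaphorins and VEGF that also binds latent and active TGF-β1 and is found on endothelial cells, myeloid cells and regulatory T cells. It measured 9.72, 9.65, 9.66, 9.86 and 9.70 in the PBS mice. In the CpG1826 mice it measured 8.63, 9.14, 8.52, 8.87 and 9.27. The PBS tumors lay close together, and the CpG1826 tumors were both lower and more spread. With means of 9.72 ± 0.08 and 8.89 ± 0.32 (SD over 5 mice each), Nrp1 fell by 0.83 ± 0.13 on the log2 scale (SE), which is 1.78-fold (1.47 to 2.15, limma adjusted p = 0.00148). Its paralog Nrp2, not one of the 10, moved the other way and is given with the other receptors.

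Promoter windows are shown for Tgfbr1, Tgfbr2 and Nrp1, the lower genes for which one was available. They run from 250 bases before to 50 bases after a RefSeq start (GRCm38.p6), on the gene's strand and 5′ to 3′. Whether these promoters have a part in the differences was not tested. Capitals mark GGGCGG (the GC box) and CCAAT, searched on both strands. The windows are chr4:47352972-47353271 on the plus strand for Tgfbr1, chr9:116175314-116175613 on the minus strand for Tgfbr2, and chr8:128358823-128359122 on the plus strand for Nrp1.
Tgfbr1: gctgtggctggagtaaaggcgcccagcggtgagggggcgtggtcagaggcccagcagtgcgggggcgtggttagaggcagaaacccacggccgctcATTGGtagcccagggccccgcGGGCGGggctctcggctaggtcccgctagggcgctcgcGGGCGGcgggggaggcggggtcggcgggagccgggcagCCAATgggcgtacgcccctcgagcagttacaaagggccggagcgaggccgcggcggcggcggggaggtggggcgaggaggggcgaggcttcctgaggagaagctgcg
Tgfbr2: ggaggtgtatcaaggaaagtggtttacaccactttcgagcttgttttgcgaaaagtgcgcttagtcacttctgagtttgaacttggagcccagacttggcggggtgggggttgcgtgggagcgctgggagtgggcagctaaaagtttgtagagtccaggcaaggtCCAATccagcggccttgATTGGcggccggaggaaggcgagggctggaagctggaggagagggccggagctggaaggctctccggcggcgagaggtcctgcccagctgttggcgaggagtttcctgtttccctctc
Nrp1: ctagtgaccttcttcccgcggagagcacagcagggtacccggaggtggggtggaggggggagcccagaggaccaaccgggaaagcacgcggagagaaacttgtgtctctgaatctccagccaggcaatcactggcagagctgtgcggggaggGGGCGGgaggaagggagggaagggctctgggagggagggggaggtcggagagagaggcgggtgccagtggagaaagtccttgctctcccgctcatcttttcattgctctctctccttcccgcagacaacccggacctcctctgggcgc

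The table holds 2 windows for Tgfbr1, of which the first is shown and counted here, as for every gene. GGGCGG occurred 2 times in that Tgfbr1 window, 0 times in that of Tgfbr2 and 1 time in that of Nrp1, and 35.9% of the 27025 windows of all genes hold it. CCAAT occurred 2 times in Tgfbr1, 2 times in Tgfbr2 and 0 times in Nrp1, against 37.9% of all windows. The TATA box TATAAA (14.2% of all windows), the AP-1 motif TGANTCA (7.93%), the NF-κB motif (4.35%) and the palindromic SMAD motif GTCTAGAC (0.211%) had no match in the 3 windows. The shorter SMAD element CAGAC, held by 49.7% of all windows, occurred 1 time in Tgfbr2 and 1 time in Nrp1. No motif searched contains another. The second Tgfbr1 window, chr4:47385966-47386265, held CCAAT 1 time, CAGAC 1 time and none of the other motifs. Windows were matched by symbol for 7 of the 10 genes; Tgfb3, Tgfbr3 and Smad7 had no entry. Of the 4 matched genes that did not pass, the GC box occurred 6 times in Tgfb1, 2 times in Smad3, 2 times in Tgfbi and 0 times in Tgfb2, which was the one with a TATA box. Among the same 4, CAGAC occurred 2 times in Tgfb2 and 2 times in Tgfbi, and CCAAT 1 time in Tgfb2.

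The SMADs and the target gene did not pass. Smad3, which carries the signal to the nucleus, ranged from 9.13 to 9.31 in PBS and from 8.87 to 9.24 in CpG1826 tumors, with a log2 fold change of -0.20 ± 0.08 (SE, -0.37 to -0.02, limma adjusted p = 0.251). Of its 5 CpG1826 values, 4 lay below all PBS values, and mouse 595 lay among them. Smad7, an inhibitor that is itself a TGF-β target and recruits ubiquitin ligases to the receptor, ranged from 8.65 to 8.90 and from 8.58 to 8.87 (-0.09 ± 0.08 SE, -0.26 to 0.08, limma adjusted p = 0.643). The ratio of Smad3 to Smad7 differed by -0.10 (exact permutation p = 0.389, adjusted p = 0.544). Tgfbi, an extracellular matrix protein named for its induction by TGF-β, ranged from 11.47 to 11.65 and from 11.56 to 11.86 (0.09 ± 0.07 SE, -0.06 to 0.24, limma adjusted p = 0.609). For these 3 genes the intervals allow at most a 1.29-fold lower level (Smad3) and a 1.18-fold higher one (Tgfbi).

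**Figure D2:**
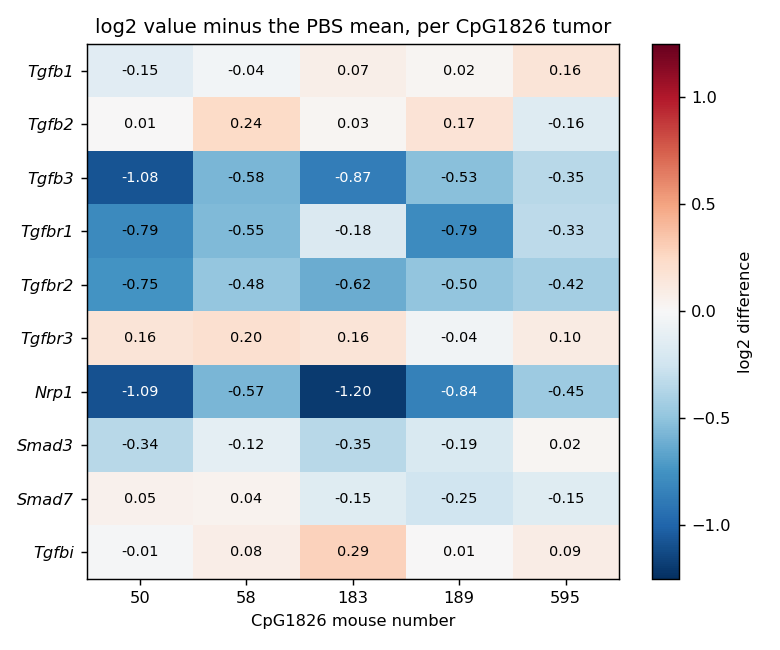
Log2 value of each of the 10 genes in each CpG1826 tumor minus the mean of the 5 PBS tumors, with mice in columns, genes in rows and the value printed in each cell. The rows of Tgfb3, Tgfbr1, Tgfbr2 and Nrp1 are blue in all 5 tumors, palest for mouse 595, except that Tgfbr1 is palest for mouse 183.

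The 4 genes that fell did so to different depths in the 5 CpG1826 tumors. Their median difference from the PBS mean was -0.94 in mouse 50, -0.75 in mouse 183, -0.66 in mouse 189, -0.56 in mouse 58 and -0.39 in mouse 595. Mouse 183 combined the largest difference of Nrp1 (-1.20) with the smallest of Tgfbr1 (-0.18). The genes therefore did not share 1 order over the tumors. After each gene's own mean was subtracted, Tgfb3 and Nrp1 differed by 0.13 log2 units per tumor on average, Tgfb3 and Tgfbr2 by 0.15, and Tgfbr1 and Tgfbr2 by 0.16.

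By the same measure over the 10 arrays, the 3 genes most like each lower gene were picked from the 9968 other genes above the median level. Tgfb3 was most like the chemokine receptor gene Cxcr3, which differed from it by 0.09 log2 units per tumor on average, followed by Otulinl (0.10) and Itga4, the integrin α4 chain (0.12). Nrp1 was most like Sertad4 (0.10), Cd180, a TLR-like receptor of B cells and macrophages (0.12), and Tgfb3 itself (0.13). Tgfbr1 was most like the potassium channel gene Kcnk6 (0.08), Dna2, a DNA repair nuclease (0.08), and the cholesterol exporter gene Abcg1 (0.09). Tgfbr2 was most like Wdr6 (0.07), Piezo2, a mechanosensitive channel (0.08), and Lmo2, a transcription cofactor of blood and endothelial cells (0.09). A like profile here means a small average difference per tumor after each gene's own mean was subtracted. It does not require an equal fall or an equal spread between tumors. In CpG1826 tumors the SD was 0.14 for Cd180 and 0.32 for Nrp1, while that of Sertad4 was closer, at 0.30. The log2 fold change was -0.37 for Abcg1 and -0.53 for Tgfbr1, while that of Dna2 was closer, at -0.50.

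Of 98 further genes on 5 pathway lists, 15 rose and 1 fell, with a median log2 fold change of 0.00, where 3.56% of all genes rose and 1.1% fell. Of the 98, 48 lay below 0, as did 11556 of all 19938 genes. All CpG1826 values lay below all PBS values for 3 of the 98 (2.42% of all genes) and above them for 15 (4.35% of all genes). Whether the lists differ from the 10 genes was not tested. Among the 10 other receptors, co-receptors and SMADs, 2 rose and 0 fell (median -0.01). Nrp2, the second neuropilin, rose by 0.30 ± 0.07 on the log2 scale (SE, limma adjusted p = 0.0235), and Smad1, a SMAD of BMP signals, by 0.27 ± 0.07 (limma adjusted p = 0.0470). The endothelial receptors Acvrl1 (0.31, limma adjusted p = 0.0897) and Eng (0.29, limma adjusted p = 0.253) did not pass, nor did Smad2 (-0.05) and Smad4 (0.02), the partners of Smad3. Of the 10 fits that leave out 1 mouse, Nrp2 did not pass in 5, namely on removal of mouse 482 or 661 (PBS), or of mouse 58, 183 or 595 (CpG1826); its limma adjusted p spanned 0.0148 to 0.0696. Smad1 passed in 1, that without CpG1826 mouse 189 (0.0387 to 0.126).

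Genes of latency and activation included 4 that rose and 1 that fell among 22 measured (median 0.09). Furin, the protease that cuts the TGF-β precursor, rose 1.52-fold, from 9.55 ± 0.14 in PBS to 10.16 ± 0.14 in CpG1826 tumors (SD over 5 mice each, limma adjusted p = 0.00104). Thbs1, thrombospondin-1, an activator of latent TGF-β, rose by 0.59 ± 0.12 on the log2 scale (SE). Itgb3, an integrin chain that pairs with αv, rose by 0.41 ± 0.08, and Itgav, the αv chain, by 0.33 ± 0.07. Nrros, which tethers latent TGF-β1 on myeloid cells, fell by 0.41 ± 0.09 (limma adjusted p = 0.0176; 0.0513 without PBS mouse 29). Of the other αv partners on the list, Itgb8 (0.20), Itgb6 (0.09), Itgb1 (-0.01) and Itgb5 (-0.25, limma adjusted p = 0.0694, with all 5 CpG1826 values below the PBS values) did not pass, nor did Lrrc32 (-0.07) and Ltbp1 (0.09).

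Of 22 regulators of receptor and SMAD signalling, 1 rose, the transcriptional repressor Tgif1 (0.32 ± 0.07 SE, limma adjusted p = 0.0113), and 0 fell (median -0.01). Over all genes 3.56% rose and 1.1% fell, so 1 of 22 is close to the share of all genes. Among 21 measured TGF-β target genes, 3 rose and 0 fell (median 0.03). These were Ccn2, a matricellular growth factor (0.52 ± 0.12 SE), Vegfa, an angiogenic factor (0.50 ± 0.12), and Junb, an AP-1 subunit (0.48 ± 0.09), all of which other signals than TGF-β also induce. The matrix targets Col1a1 (-0.28), Fn1 (0.01) and Postn (-0.04) did not pass. Ccn2 did not pass in 6 of the 10 fits that leave out 1 mouse, namely on removal of mouse 26, 29 or 661 (PBS), or of mouse 50, 183 or 189 (CpG1826); its limma adjusted p spanned 0.0145 to 0.0783. Vegfa did not pass in 3, on removal of mouse 29 (PBS), or of mouse 50 or 58 (CpG1826), with 0.0182 to 0.0639.

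In the neighbouring activin and BMP branch, 5 of 26 measured genes rose and 0 fell (median 0.01). Id2, an inhibitor of DNA binding induced by BMPs and other cues, rose by 0.69 ± 0.15 on the log2 scale (SE), and Grem1, a secreted BMP antagonist, by 0.63 ± 0.08 (limma adjusted p = 0.000361). Acvr1b, the type I activin receptor, rose by 0.51 ± 0.08, and Inhba and Inhbb, the chains of activin A and activin B, by 0.38 ± 0.08 and 0.33 ± 0.08. Activin receptors and TGFBR1 feed the same SMAD2 and SMAD3. Listed genes without a probe of their own were not analysed here.

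**Figure D3:**
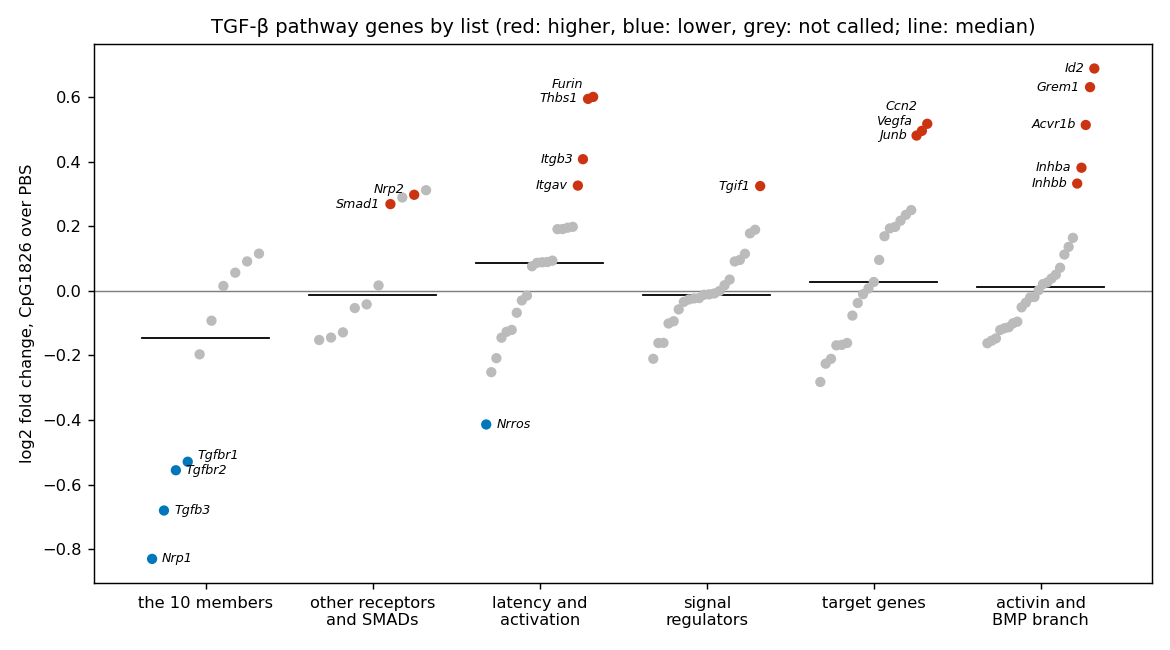
Log2 fold change of CpG1826 over PBS for the 10 genes and for the genes of 5 pathway lists, with 1 point per gene, sorted within each list, and a line at the median. Points are red where the gene was called higher, blue where it was called lower and grey otherwise; 4 of the 10 genes are blue, and of the lists Nrros alone has a blue point.

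Markers of several cell types moved with the groups, where 3.56% of all genes rose and 1.1% fell. For keratinocytes, 12 of the 17 markers with a probe rose, and their mean level, the list score, was 5.38 to 5.92 in PBS and 6.77 to 7.44 in CpG1826 tumors; Krt1 had the largest difference, 3.06 on the log2 scale. Of 10 neutrophil markers 6 rose and 0 fell (score 5.59 to 5.83 and 6.26 to 6.70), S100a8 by 2.13. Of 13 monocyte and macrophage markers 3 fell, Cx3cr1 (-1.21), Ccr2 (-0.61) and Csf1r (-0.46), and Fcgr1 rose (0.40); the score was 9.55 to 9.88 in PBS and 9.36 to 9.77 in CpG1826 tumors. Of the 13, 9 lay below 0, with a median of -0.14; the uncalled ones ran from Cd163 (-0.35) and Mertk (-0.26) through Mrc1 (-0.17), C1qa (-0.14), C1qc (-0.13), Cd68 (-0.02), Adgre1 (0.03) and C1qb (0.06) to Itgam (0.32).

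For the other cell types the score ranges of the groups overlapped. The score of the 13 endothelial markers was 7.37 to 7.51 in PBS and 7.32 to 7.58 in CpG1826 tumors, with Tek lower (-0.34) and 0 higher; Pecam1 had the largest difference (0.37) and did not pass. Of the 12 fibroblast markers Pdpn rose (0.42) and 0 fell, while 8 lay below 0 and 4 above (median -0.09). The lowest were the collagen genes Col1a1 (-0.28), Col5a1 (-0.26), Col1a2 (-0.21) and Col6a3 (-0.19), which did not pass. In Col5a1 all 5 CpG1826 values lay below the PBS values. The fibroblast score reached 10.13 in PBS and ran from 9.75 to 10.17 in CpG1826 tumors. For pericytes and smooth muscle 0 of 10 passed, with Pdgfrb at -0.43 (limma adjusted p = 0.0578), and 9 lay below 0 (median -0.14). Their score was 7.31 to 7.40 in PBS tumors. In CpG1826 mice 50, 58, 183, 189 and 595 it was 7.09, 7.25, 7.48, 7.17 and 7.17, so only mouse 183 was not below every PBS tumor. For platelets 0 of 6 passed (Treml1 at -0.22), for skeletal muscle 0 of 8 (8 below 0, Myh4 at -0.53) and for adipocytes 0 of 7 (Cidec at -0.19). Of 11 T cell markers Il7r rose (1.18) and 0 fell, while 8 lay below 0 and 3 above (median -0.09). The lowest was Cd3g (-0.51), which did not pass. The T cell score was 6.90 to 7.54 in PBS and 6.94 to 7.67 in CpG1826 tumors. Of 11 markers of simple or colon epithelium, the labelled origin of MC38, Cdh1 (0.63) and Epcam (0.32) rose; the score was 5.26 to 5.45 in PBS tumors, with Krt20 at 4.32, Cdh17 at 4.36 and Cdx2 at 5.58, levels that cannot be called present or absent without detection calls.

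**Figure D4:**
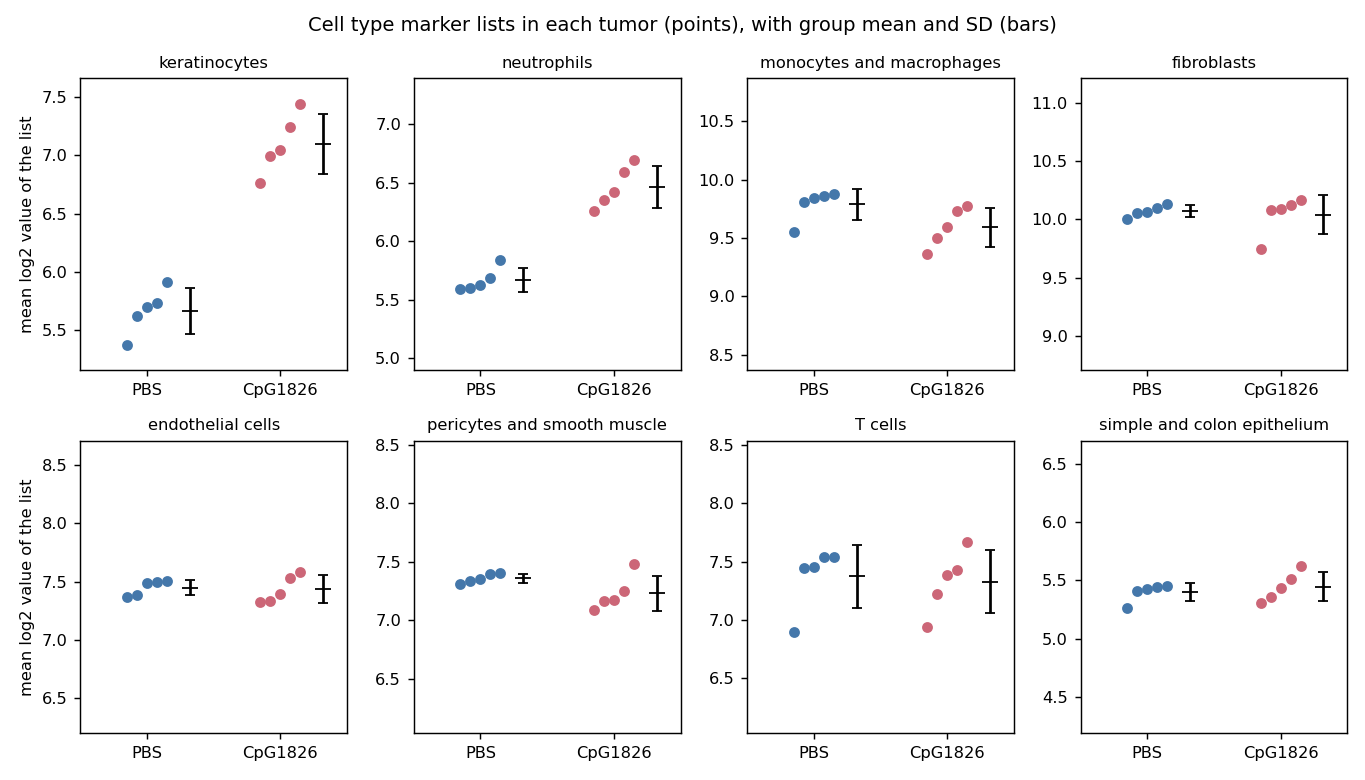
Mean log2 value of the markers of 8 cell types in each tumor, with 5 PBS tumors in blue, 5 CpG1826 tumors in red and bars for the group mean and SD; every panel spans 2.5 log2 units. The keratinocyte and neutrophil scores separate the groups, and the ranges of the other 6 overlap.

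The 4 lower genes were set beside 2 of these scores by adding each to the fit as a covariate. With the macrophage score, a fit chosen after the data were seen, Nrp1 (-0.74 ± 0.15 SE, limma adjusted p = 0.0151) and Tgfbr2 (-0.55 ± 0.10, limma adjusted p = 0.00699) remained called lower. In that fit Tgfb3 (-0.51 ± 0.14, limma adjusted p = 0.0637) and Tgfbr1 (-0.34 ± 0.11, limma adjusted p = 0.124) did not pass. In the CpG1826 tumors the macrophage score was 9.36 in mouse 50, 9.50 in mouse 189, 9.60 in mouse 58, 9.73 in mouse 183 and 9.77 in mouse 595. By their median, the 4 genes were lowest in mouse 50, second lowest in mouse 183 and highest in mouse 595. PBS mouse 661 had a score of 9.55, below CpG1826 mice 58, 183 and 595 and far from the other PBS tumors (next 9.81). In each of the 4 genes every PBS tumor, that of mouse 661 among them, lay above all 5 CpG1826 tumors. Whether macrophage content accounts for the 4 differences was not tested. Mouse 50 also had the lowest fibroblast score, 9.75 against 10.08 to 10.17 in the other 4. Among CpG1826 tumors it was lowest too in the scores of T cells (6.94), pericytes and smooth muscle (7.09) and endothelial cells (7.32). Its neutrophil score was the highest (6.70).

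With the keratinocyte score, 0 of the 10 genes passed. Tgfbr2 was at -0.73 ± 0.29 (SE, limma adjusted p = 0.233), Nrp1 at -0.75 ± 0.47 (limma adjusted p = 0.419) and Tgfb3 at -0.40 ± 0.47 (limma adjusted p = 0.681), while Tgfbr1 turned positive, at 0.56 ± 0.28 (limma adjusted p = 0.310). The keratinocyte scores of the groups do not overlap, so these estimates are extrapolated and their errors are larger. The keratinocyte and neutrophil scores separate the groups as CpG1826 does, so their part in the 4 differences cannot be told apart from that of CpG1826 in these tumors. The part of other cell types was not tested. Of the called pathway genes outside the 10, all but Itgav and Inhbb were followed in both covariate fits and without 1 mouse. Among those followed, Nrp2, Furin, Itgb3, Id2, Grem1 and Acvr1b kept their calls beside the macrophage score. The other 8 did not pass beside it (limma adjusted p = 0.0592 to 0.190), at log2 fold changes of 0.27 for Smad1, 0.50 for Thbs1, 0.30 for Tgif1, 0.32 for Inhba, 0.34 for Junb, 0.39 for Ccn2, 0.31 for Vegfa and -0.24 for Nrros. Without the score, those of Smad1, Thbs1, Tgif1 and Inhba were 0.27, 0.59, 0.32 and 0.38. Those of Junb, Ccn2, Vegfa and Nrros were 0.48, 0.52, 0.50 and -0.41 without it. Beside the keratinocyte score none of these 14 passed (limma adjusted p = 0.0615 to 0.993), with estimates from -0.14 (Vegfa) to 1.92 (Id2). Those of Id2, Itgb3, Acvr1b, Nrp2, Smad1, Furin and Thbs1 were larger than without the score. Those of Grem1, Inhba, Tgif1, Ccn2 and Junb were smaller, and those of Nrros and Vegfa changed sign.

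**Figure D5:**
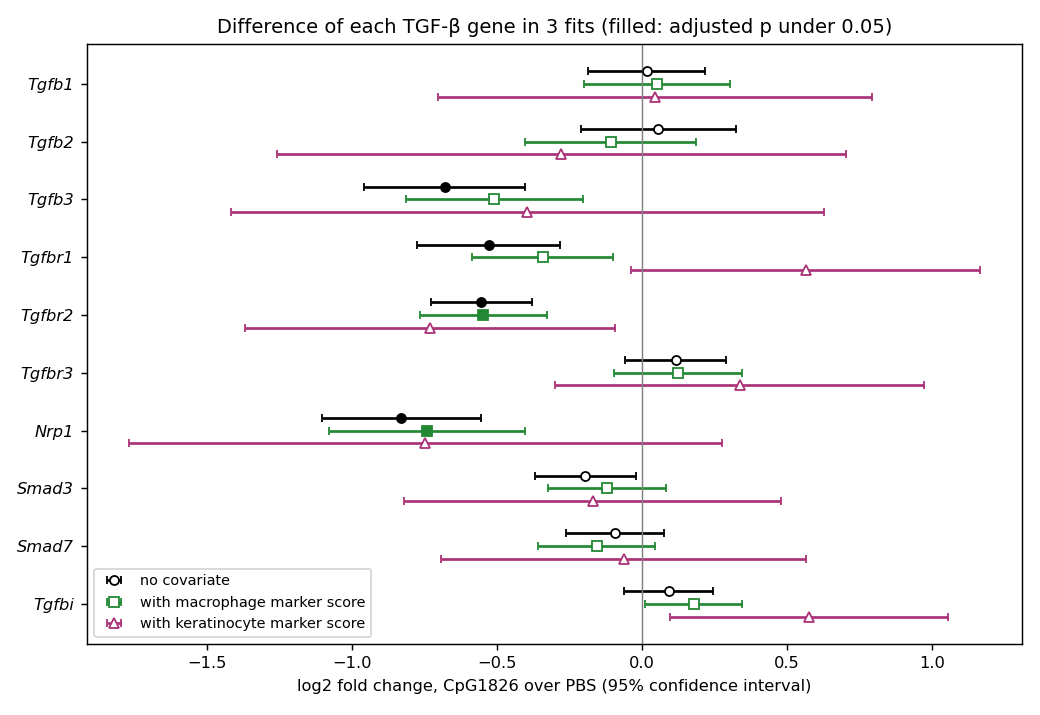
Log2 fold change of CpG1826 over PBS with its 95% confidence interval for each of the 10 genes, in the fit without a covariate (black circles), with the macrophage marker score (green squares) and with the keratinocyte marker score (purple triangles); filled symbols passed an adjusted p of 0.05. Nrp1 and Tgfbr2 are filled in the first 2 fits, Tgfb3 and Tgfbr1 in the first, and no gene in the third.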

How the data were processed

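Expression was measured on whole-transcript arrays in 10 tumors, 5 per group. The deposited table holds 35512 probes on a log2 scale, from 2.03 to 14.70, and the authors' normalization shows in array medians of 6.47 to 6.53; base 2 was inferred from their range. Per the submitters' processing notes R 2.7.1 and limma were used, with no role given; the background correction, summarization and build were not given in the sources used here. Normalization of this kind removes any shift common to most genes, and dim probes can understate a fold change.

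Probes were named from the array's annotation table: 21789 have 1 symbol, 1621 several and 12102 none. Single-symbol probes were kept and, for genes with several, that with the highest mean, giving 19938 genes. CpG1826 was compared with PBS across all genes with limma 3.58.1 in R 4.3.3 (lmFit, eBayes, two-sided, Benjamini-Hochberg, threshold 0.05, 95% intervals); the fit was tested on simulated data. The labels give no batch and no mouse number shared between the groups, so the fit has no block; p-values measure the spread between these mice. The members, lists and tests were chosen with earlier results of these data known. Named were the 10 members, up to 4 called genes per pathway list or, with none called, the 2 brightest, 1 gene per marker list and 3 genes per like profile; Itgav, Inhbb and genes given as not passing were named after their values were seen, as were the other called marker genes. Alternatives were another normalization, filters on dim genes, other priors and weights, other probe rules, a stricter threshold, 2 covariates and leaving out each mouse. The number of arrays limits the precision.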

Additional observations from a re-analysis of the deposited data

Results flagged for a closer look

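Of 66 groups of 5 values tested for a tumor far from the others (the 10 genes, the 7 log2 ratios and the list scores, in each group), 5 had one, where chance gives about 1 in 20; none of the 5 was a value of the 10 genes or of a ratio. The fibroblast score of CpG1826 mouse 50 was 9.75, the lowest, with the next at 10.08. PBS mouse 661 was lowest in the monocyte and macrophage score (9.55, next 9.81) and in the T cell score (6.90, next 7.45). PBS mouse 592 had the lowest score of simple and colon epithelium (5.26, next 5.41), and CpG1826 mouse 189 the highest score of the activin and BMP branch (7.31, next 7.23).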

How the results depend on the processing

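The 4 lower genes, and no higher ones, were called in each of the 10 fits that leave out 1 mouse, and under every normalization, filter, prior, weight, probe rule or threshold tried other than the covariates, except that Tgfbr1 (limma adjusted p = 0.0159) did not pass the stricter limit of 0.01. Their largest limma adjusted p without 1 mouse was 0.0443 for Tgfbr1 (PBS mouse 482 left out), 0.0265 for Tgfb3, 0.00665 for Nrp1 and 0.00419 for Tgfbr2 (PBS mouse 26 left out). With the keratinocyte score as a covariate 0 of the 10 passed (Tgfb3 -0.40, Tgfbr1 0.56, Tgfbr2 -0.73, Nrp1 -0.75), and in that fit Nrros was at 0.17 and Vegfa at -0.14; with the macrophage score 2 passed (Tgfb3 -0.51 and Tgfbr1 -0.34 did not). The ratio of Tgfb2 to Tgfb3 differed by 0.63 to 0.87 without 1 mouse. No paired analysis was possible because the groups share no mouse number.

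Over all genes, the 220 lower calls were 364 (beside 720 higher, 66.4% of calls higher against 76.3%) after a further quantile normalization, 338 without the genes below the median level, 23 (141 higher) with the keratinocyte score, 64 (407 higher) at an adjusted p under 0.01, and 121 to 209 without 1 mouse (144 without PBS mouse 29, 121 without 482, 137 without 592, 135 without CpG1826 mouse 50, 142 without 183); the cause was not tested, apart from the fewer genes tested and the stricter limit. Tgfb2 fell below the median level and was left out by that filter.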
